A study of Mus musculus with 2 samples.

Results

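The genes Ddx58, Ifih1, Dhx58, Zbp1, Eif2ak2, Ddx60 and Adar, encode cytosolic sensors and effectors of double-stranded RNA, and they are described here across the cells of orthotopic pancreatic tumors. They were chosen by symbol, as 7 of the 32285 genes listed in both libraries, but earlier results of these data were known at the time. The tumors grew from K210 cells, a mouse pancreatic cancer line, in male C57BL/6J mice, so both groups share tumor, strain and sex. One group received PBS. The other received cmExoaCD11b, exosomes that carry IL-12 mRNA, the STING agonist cGAMP at 5 µg per mouse and an antibody to CD11b. Tumors were taken 48 h later, and the cells of 3 mice per treatment went into 1 droplet library made with a 10x Genomics 3′ kit, so that mice within a library cannot be told apart. Since each treatment has 1 library, the comparison has no replicates, and treatments could not be tested against each other.

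Double-stranded RNA in the cytosol is a sign of viral infection or of misplaced cellular RNA. RIG-I, encoded by Ddx58, and MDA5, encoded by Ifih1, bind such RNA and signal through MAVS to the transcription factors IRF3 and IRF7, which drive transcription of type I interferon, while LGP2, encoded by Dhx58, lacks the signaling domains of both and modulates them. ZBP1 binds Z-form nucleic acid and engages the kinase RIPK3 in a cell death pathway. PKR, encoded by Eif2ak2, phosphorylates the translation factor eIF2 alpha and so slows protein synthesis. DDX60 is an interferon-inducible helicase, and ADAR1, encoded by Adar, edits adenosine to inosine in double-stranded RNA and thereby limits its recognition as foreign. All 7 genes are known as interferon-stimulated genes in many cell types, so their transcript levels can go with an interferon response. RNA sensing itself was not measured here.

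The sequences around the transcription starts show what these genes share in their regulatory DNA. RefSeq start sites (build GRCm38.p6) were at hand for Ddx58, Ifih1, Eif2ak2, Ddx60 and Adar, the last with 3 starts, but not for Dhx58 and Zbp1. In windows of 300 bases, from 250 before to 50 after the start, the core of the interferon-stimulated response element, GAAANNGAA followed by a further A, was searched on both strands. It was present at the starts of 4 of the 5 genes, Ddx58, Ifih1, Eif2ak2 and Ddx60, against 3.44% of 32851 windows of all genes. Ddx60 held 2 copies upstream of its start, and the other copies lay just downstream of the start. Adar held no match of the longer motif at any of its 3 starts. The third start held 2 matches of the shorter GAAANNGAA, both without the further A, and the downstream one is shown. The shorter form, with or without the further A, was present in 8.56% of all windows. The stretches below run 5′ to 3′ on the strand of the gene, and capitals mark the match, which for Ddx58 lies on the opposite strand.
Ddx58, chr4:40239804-40239833, minus strand: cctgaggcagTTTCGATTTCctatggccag
Ifih1, chr2:62646206-62646233, minus strand: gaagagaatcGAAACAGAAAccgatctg
Eif2ak2, chr17:78882535-78882564, minus strand: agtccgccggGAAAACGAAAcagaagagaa
Ddx60, chr8:61928024-61928087, plus strand: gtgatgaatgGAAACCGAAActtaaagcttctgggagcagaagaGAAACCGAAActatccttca
Adar, start 3, chr3:89730741-89730767, plus strand: tcaaggaaacGAAAGTGAActctgggg

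The libraries held 67143628 unique molecular identifiers (UMIs) for PBS and 81288480 for cmExoaCD11b. After filtering, 6835 and 7073 cells remained, with a median of 3471 and 4098 UMIs, and the libraries shared 16 cell barcodes. Cells were classed by UMIs of fixed marker genes, and a class name here means only that a cell passed that gate. There were 8 classes with at least 50 cells in both libraries: neutrophils (3099 cells in PBS and 2483 in cmExoaCD11b), neutrophil precursors (1056 and 1648), macrophages (327 and 110), monocytes (134 and 221), B cells (268 and 345), CD8 T cells (121 and 285), CD4 T cells (124 and 206) and T cells without a UMI of Cd4, Cd8a or Cd8b1 (89 and 213). In each of these classes, every gene of its own marker list was detected in both libraries. Levels are CPM, the UMIs of a gene divided by all UMIs of a class and scaled to 1000000, and intervals are 95% intervals that cover counting error only. Epithelial cells, the lineage of the tumor itself, numbered 46 and 31, too few for comparison. Dendritic cells numbered 36 and 79, which left them outside the 8 classes as well. In such data fewer expressing cells and less RNA per cell cannot be told apart from a class level alone. A gene was compared in a class where it had at least 50 UMIs over both libraries.

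Every member stood higher in cmExoaCD11b than in PBS in every class in which it could be compared. Of the 56 pairs of member and class, 53 had enough UMIs, all 53 ratios of cmExoaCD11b to PBS were above 1, and the intervals of 48 excluded 1. The ratio was at least 2 in 41 pairs, with a median of 2.63 and a range of 1.17 to 6.46. Over all kept cells, the 7 genes together made up 212 CPM in PBS and 481 CPM in cmExoaCD11b, a ratio of 2.27 (2.22 to 2.32). With the class shares of the PBS library applied to both libraries, the ratio was 2.69. Single members over all kept cells lay between 1.81 for Ifih1 and 3.19 for Ddx60, and 2.92% of 14196 genes compared in all kept cells were at least 2-fold higher.

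**Figure D1:**
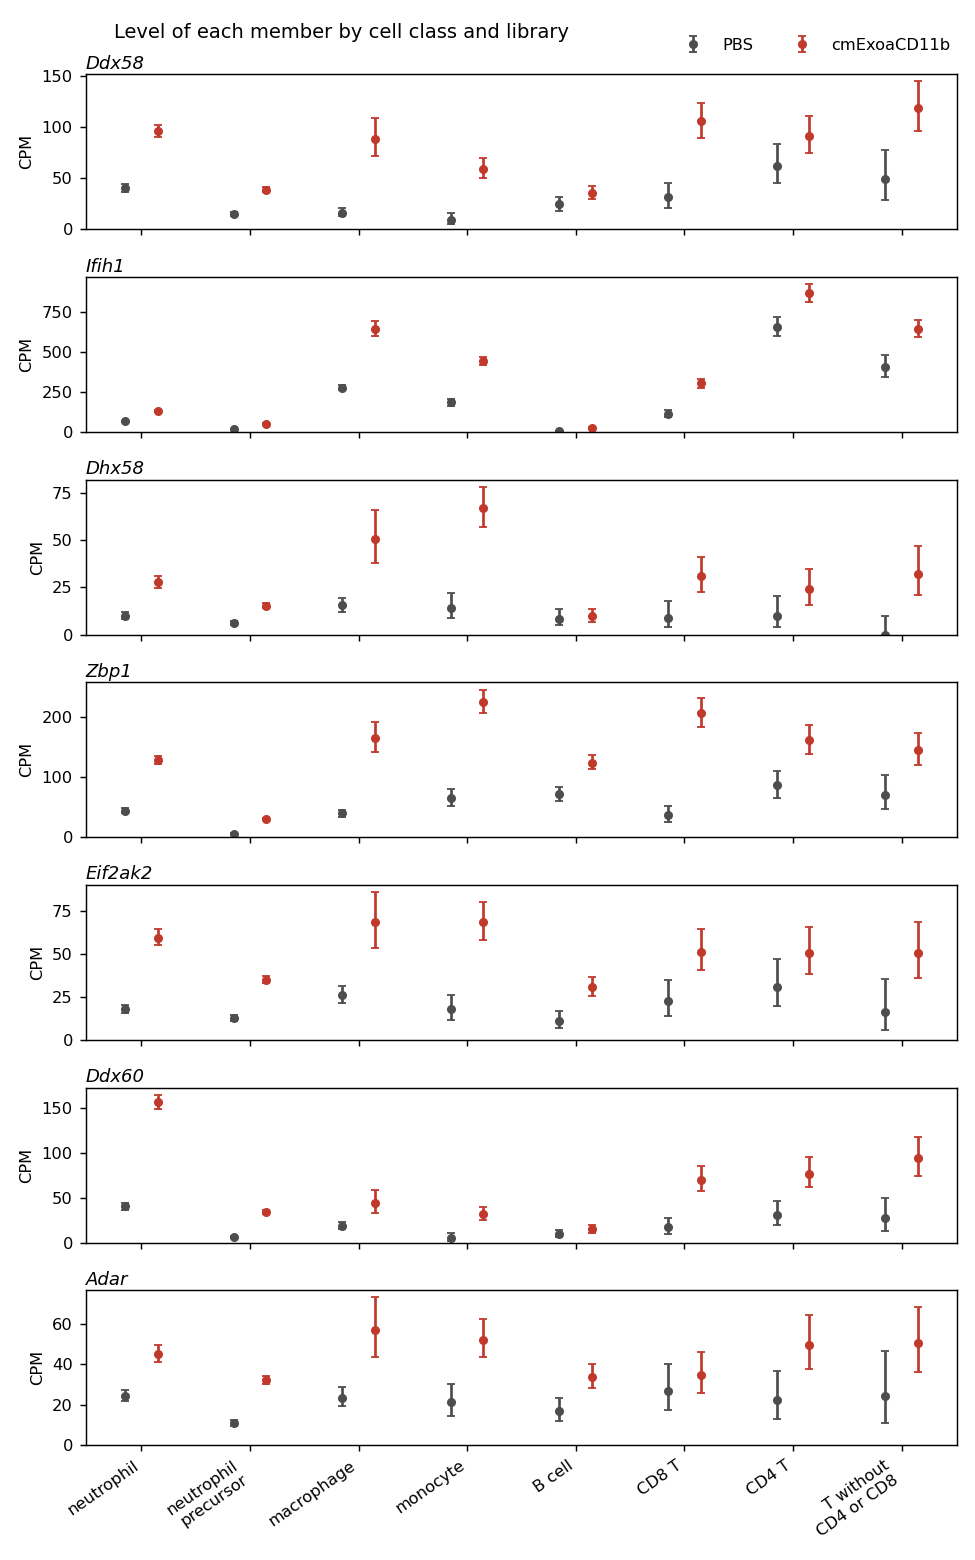
Level of each member in CPM (vertical axis, starting at 0) in 8 cell classes (horizontal axis) for the PBS (grey) and cmExoaCD11b (red) libraries, 1 library each. Points are class levels and bars exact Poisson 95% intervals, which cover counting error only. The red points lie above the grey ones in every class, and Ifih1 is highest in CD4 T cells while Ddx60 is highest in neutrophils of the cmExoaCD11b library.

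In the myeloid classes and in CD8 T cells most or all members were at least 2-fold higher, against a few percent of all genes compared. In neutrophils 6 of 7 members were at least 2-fold higher, where 4.46% of 9751 genes were at least 2-fold higher and 12.1% at least 2-fold lower. In neutrophil precursors it was 7 of 7, where 3.34% of genes were higher and 0.95% lower by that measure. In macrophages it was 7 of 7, with 3.63% of genes higher and 3.74% lower. The monocytes likewise had 7 of 7, with 4.58% higher and 2.8% lower. CD8 T cells had 6 of 7, beside 4.25% higher and 2.47% lower. The counts were smaller in B cells and CD4 T cells. B cells had 2 of 7 members at least 2-fold higher, where 2.23% of genes were higher and 2.5% lower. CD4 T cells had 2 of the 6 compared, with 3.26% of genes higher and 1.27% lower. T cells without Cd4 or Cd8 UMIs had 4 of the 5 compared, with 3.61% higher and 1.19% lower. The median ratio of the members was 3.86 in monocytes, 3.35 in CD8 T cells, 2.82 in neutrophils, 2.78 in precursors, 2.63 in macrophages, 2.06 in T cells without Cd4 or Cd8 UMIs and 1.75 in both B cells and CD4 T cells. The median over all compared genes lay between 0.855 in neutrophils and 1.14 in precursors.

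**Figure D2:**
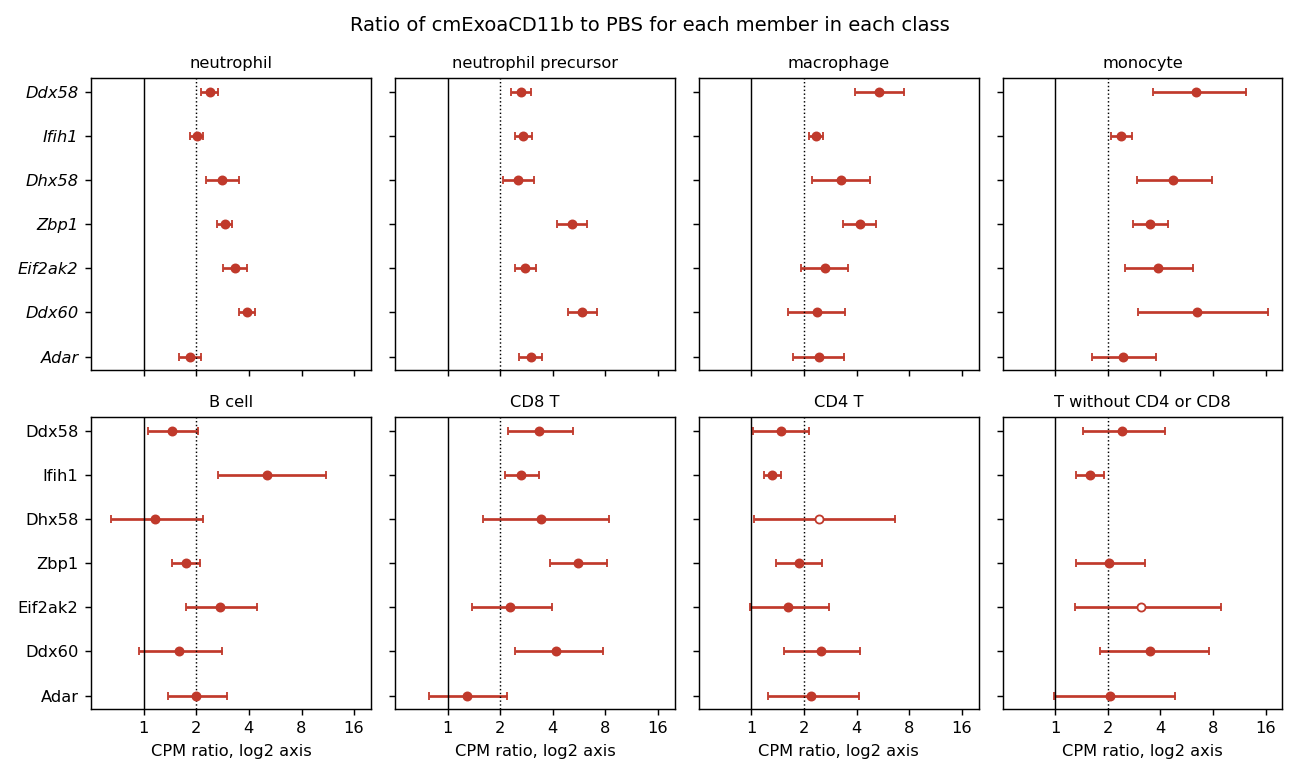
Ratio of cmExoaCD11b to PBS in CPM for each member (rows) in each of 8 cell classes (panels), on a log2 axis. Bars are exact conditional 95% intervals for counting error, open circles had fewer than 50 UMIs over both libraries, the solid line marks no difference and the dotted line 2-fold. Dhx58 in T cells without Cd4 or Cd8 UMIs has no point because no PBS cell held a UMI of it. All points lie to the right of the solid line.

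Markers of other cells and free RNA moved with treatment in some classes. In neutrophils the summed level of the 8 precursor markers was 3384 CPM in PBS and 6763 CPM in cmExoaCD11b, and that of the monocyte markers was 187 and 396 CPM. The 8 macrophage markers went the other way in CD4 T cells, from 101 CPM in PBS to 17.7 CPM in cmExoaCD11b, where 1 of the 8 was at 0. In macrophages the 5 NK cell markers went from 5.75 to 48.4 CPM and the 4 T cell markers from 112 to 151 CPM. Droplets with at most 100 UMIs, which hold free RNA, contained the members at higher levels in cmExoaCD11b as well, with Ifih1 at 112 CPM in PBS and 231 CPM in cmExoaCD11b. The part of these markers and of free RNA in the class ratios was not tested, other than by the subtraction of free RNA at 10% of UMIs, after which all 7 members were still at least 2-fold higher in precursors, macrophages and monocytes.

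Ddx58, the gene of the sensor RIG-I, was among the members with the widest range of ratios. In macrophages it stood at 16.3 CPM in PBS (71 UMIs) and 88.3 CPM in cmExoaCD11b (93 UMIs), a ratio of 5.40 (3.93 to 7.47). In monocytes it stood at 9.22 CPM (13 UMIs) and 59.0 CPM (138 UMIs), a ratio of 6.40 (3.62 to 12.3). Both classes were among the 3 with its lowest PBS levels, and the classes lay closer together in cmExoaCD11b. The highest class exceeded the lowest 6.7-fold in PBS and 3.3-fold in cmExoaCD11b. CD8 T cells had 31.5 and 105 CPM, a ratio of 3.35 (2.23 to 5.20). T cells without Cd4 or Cd8 UMIs had 48.8 and 118 CPM, a ratio of 2.42 (1.45 to 4.25). Both T cell classes thus ended near the neutrophils, which went from 40.3 to 95.9 CPM, a ratio of 2.38 (2.14 to 2.66), and the intervals of the 5 highest classes overlapped from neighbor to neighbor in cmExoaCD11b. Precursors, at 14.7 and 38.6 CPM, had a ratio of 2.63 (2.31 to 2.99). Levels in precursors, monocytes and B cells lay below those of empty droplets, 30.8 CPM in PBS and 63.1 CPM in cmExoaCD11b. Smaller ratios were found in B cells, 1.46 (1.05 to 2.05), and in CD4 T cells, 1.47 (1.03 to 2.15), which already had the highest PBS level of 62.0 CPM. Thinning every cell to 1000 UMIs brought the macrophage ratio to 2.21 and the CD4 T cell ratio to 0.989. Few cells then held a Ddx58 UMI, 7 PBS and 5 cmExoaCD11b macrophages and 13 and 20 CD4 T cells.

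Ifih1, the gene of the sensor MDA5, had a class pattern of its own. In PBS its level fell from 658 CPM in CD4 T cells through 407 CPM in T cells without Cd4 or Cd8 UMIs, 276 CPM in macrophages, 185 CPM in monocytes, 115 CPM in CD8 T cells, 65.8 CPM in neutrophils and 18.8 CPM in precursors to 4.67 CPM in B cells. No interval for counting error overlapped that of its neighbor. In cmExoaCD11b the order was nearly the same, with 866 CPM in CD4 T cells, 646 CPM in macrophages, 645 CPM in T cells without Cd4 or Cd8 UMIs, 442 CPM in monocytes, 304 CPM in CD8 T cells, 132 CPM in neutrophils, 51.1 CPM in precursors and 23.8 CPM in B cells. Of these neighbors, only macrophages and T cells without Cd4 or Cd8 UMIs overlapped. In PBS, 1 CD8 T cell held 34 of the 102 Ifih1 UMIs of its class. Cells with 10 or more Ifih1 UMIs held 56.5% of these UMIs in PBS CD4 T cells (15 cells) and 54.7% in T cells without Cd4 or Cd8 UMIs (6 cells). They held 77.2% in PBS macrophages (40 cells) and 72.4% in PBS monocytes (8 cells). The intervals do not allow for such concentration. With every cell thinned to 1000 UMIs, 7.44% of PBS CD8 T cells and 7.69% of PBS monocytes held an Ifih1 UMI.

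The ratio of Ifih1 was smallest where its PBS level was highest. It was 1.32 (1.18 to 1.47) in CD4 T cells and 1.58 (1.32 to 1.91) in T cells without Cd4 or Cd8 UMIs. It was 2.34 (2.12 to 2.57) in macrophages, 2.39 (2.08 to 2.74) in monocytes, 2.65 (2.13 to 3.32) in CD8 T cells and 2.71 (2.43 to 3.04) in precursors. Neutrophils had 2.01 (1.84 to 2.20), which became 1.24 when only droplets above the cut-off on ranked UMIs counted as cells. The B cell ratio of 5.10 (2.65 to 11) rested on 10 and 90 UMIs, 5 cells held 64.4% of the 90, and the ratio ranged from 2.32 to 9.93 over the alternatives. Levels in neutrophils, precursors and B cells lay below those of empty droplets in each library. After subtraction of free RNA the ratio was 2.0 in neutrophils and 3.64 in precursors, and B cells gave none. Among classes with few cells, NK cells were the exception in direction, with 558 CPM in 23 PBS cells and 274 CPM in 82 cmExoaCD11b cells, a ratio of 0.49 (0.337 to 0.722). One PBS cell held 34 of the 44 NK cell UMIs. Epithelial cells had 18.0 and 18.1 CPM.

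Dhx58, the gene of the modulator LGP2, was the sparsest member. Among the 8 compared classes it was highest in monocytes and macrophages. Monocytes had 14.2 CPM in PBS (20 UMIs) and 66.7 CPM in cmExoaCD11b (156 UMIs), a ratio of 4.70 (2.94 to 7.91). Macrophages had 15.4 and 50.3 CPM, a ratio of 3.26 (2.23 to 4.75). The intervals of both classes overlapped each other in each library. In PBS all neighboring intervals in the order of classes overlapped. In cmExoaCD11b the macrophage interval also overlapped those of T cells without Cd4 or Cd8 UMIs and of CD8 T cells. Neutrophils had 9.81 and 27.6 CPM, a ratio of 2.82 (2.27 to 3.51), and precursors had 5.96 and 15.1 CPM, a ratio of 2.53 (2.07 to 3.11). CD8 T cells had 9.0 CPM (8 UMIs) and 30.8 CPM (45 UMIs), a ratio of 3.42 (1.60 to 8.40). In B cells no difference was detectable at this depth, with a ratio of 1.17 (0.647 to 2.17). T cells without Cd4 or Cd8 UMIs held 0 UMIs in PBS and 26 in cmExoaCD11b, at least 3.93-fold higher against a floor of 3 UMIs in the class, with a lower limit of 2.97 for the exact interval of the ratio, and CD4 T cells held 7 and 27, which were too few to be compared. The monocyte ratio was 2.68 after thinning, when 2 of 130 PBS monocytes held a Dhx58 UMI. Levels in precursors and B cells lay below those of empty droplets, 9.57 CPM in PBS and 29.0 CPM in cmExoaCD11b. Dendritic cells, outside the 8 classes, stood higher than all of these, at 22.3 CPM (10 UMIs) in PBS and 72.1 CPM (77 UMIs) in cmExoaCD11b. Their intervals overlapped those of monocytes and macrophages.

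Zbp1, the gene of the Z-nucleic acid sensor, changed its class order with treatment. CD8 T cells had its second lowest PBS level, 37.1 CPM from 33 UMIs, and its second highest level in cmExoaCD11b, 206 CPM from 301 UMIs, a ratio of 5.55 (3.87 to 8.21). Precursors had the lowest level in both libraries, 5.92 and 30.3 CPM, with a ratio of 5.13 (4.24 to 6.24). Both levels lay below those of empty droplets, 39.5 CPM in PBS and 79.5 CPM in cmExoaCD11b. In cmExoaCD11b the highest level was in monocytes, at 225 CPM against 64.5 CPM in PBS, a ratio of 3.49 (2.79 to 4.40), and neighboring intervals overlapped from monocytes down to B cells. Macrophages went from 39.6 to 165 CPM, a ratio of 4.17 (3.36 to 5.18), and neutrophils from 44.1 to 128 CPM, a ratio of 2.90 (2.63 to 3.21). Smaller ratios were found in 3 lymphocyte classes. CD4 T cells, at 85.9 and 160 CPM, had 1.87 (1.39 to 2.54), B cells, at 70.9 and 124 CPM, had 1.75 (1.45 to 2.11), and T cells without Cd4 or Cd8 UMIs, at 70.6 and 144 CPM, had 2.04 (1.32 to 3.25). Subtraction of free RNA moved the precursor ratio to 11.4, and a cap of 3 UMIs per cell moved the monocyte ratio to 2.15. The B cell ratio was 3.46 with equal weight for each cell and 3.44 after thinning, when 9 of 260 PBS B cells held a Zbp1 UMI. The neutrophil ratio was 4.66 in droplets above the cut-off on ranked UMIs.

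Eif2ak2, the gene of the translation-blocking kinase PKR, had a narrow range of class levels. The highest class exceeded the lowest 2.8-fold in PBS and 2.2-fold in cmExoaCD11b, and in both libraries the intervals of all neighbors in the order overlapped. Some classes further apart in the order were separated. In PBS, macrophages had an interval of 21.4 to 31.3 CPM and precursors 11.1 to 14.3 CPM. In cmExoaCD11b, monocytes had 58.2 to 79.9 CPM and B cells 25.4 to 36.8 CPM. Monocytes had 17.7 and 68.4 CPM, a ratio of 3.86 (2.52 to 6.14), and neutrophils 17.9 and 59.5 CPM, a ratio of 3.32 (2.84 to 3.89). Precursors had 12.6 and 35.1 CPM, a ratio of 2.78 (2.43 to 3.20), and macrophages 26.0 and 68.4 CPM, a ratio of 2.63 (1.93 to 3.56). Apart from Ifih1, Eif2ak2 had the largest ratio in B cells, at 11.2 and 30.7 CPM, a ratio of 2.74 (1.75 to 4.45). CD8 T cells, at 22.5 and 51.3 CPM, had a ratio of 2.28 (1.38 to 3.95). The interval of CD4 T cells, at 31.0 and 50.5 CPM, included 1, with a ratio of 1.63 (0.981 to 2.80). The ratio was 5.28 in precursors, 5.96 in monocytes and 1.97 in macrophages after thinning. These ratios rested on few counts, since 7 of 1030, 2 of 130 and 11 of 322 PBS cells then held a UMI. Levels in B cells lay below those of empty droplets, 12.3 CPM in PBS and 41.1 CPM in cmExoaCD11b.

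Ddx60, the interferon-inducible helicase, was the member most biased to neutrophils. In cmExoaCD11b neutrophils reached 157 CPM from 1654 UMIs, above every other class beyond counting error, and the next class, T cells without Cd4 or Cd8 UMIs, had 94.7 CPM. In PBS neutrophils were also first, at 40.3 CPM, but there every neighboring pair of intervals overlapped. The neutrophil ratio was 3.9 (3.53 to 4.32). Precursors, at 5.82 and 34.4 CPM, had a ratio of 5.91 (4.89 to 7.20), the largest of any member in that class. The monocyte ratio of 6.46 (2.99 to 16.6) was the largest of all pairs but rested on 7 PBS UMIs, and it ranged from 2.43 with equal weight for each cell to 12.3 in droplets above the cut-off on ranked UMIs. CD8 T cells, at 16.9 and 70.5 CPM, had a ratio of 4.18 (2.42 to 7.73), and T cells without Cd4 or Cd8 UMIs had 3.49 (1.80 to 7.57). CD4 T cells, at 31.0 and 77.1 CPM, had 2.49 (1.54 to 4.17), the largest ratio of a member compared in that class. Macrophages, at 18.9 and 44.6 CPM, had 2.36 (1.62 to 3.43). Levels in precursors, monocytes, macrophages and B cells lay below those of empty droplets, 22.7 CPM in PBS and 57.3 CPM in cmExoaCD11b. B cells had 9.33 and 14.8 CPM, and the interval of the ratio, 0.938 to 2.79, included 1. That ratio ran from 0.673 in droplets above the cut-off on ranked UMIs to 2.58 with equal weight for each cell, which also brought T cells without Cd4 or Cd8 UMIs to 1.98. Thinning brought CD4 T cells to 3.81, when 2 of 124 PBS CD4 T cells held a Ddx60 UMI.

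Adar, the gene of the RNA editing enzyme ADAR1, varied least. Its highest class exceeded its lowest 2.5-fold in PBS and 1.8-fold in cmExoaCD11b, where the levels ran from 32.3 CPM in precursors to 57.0 CPM in macrophages with all neighboring intervals overlapping. Its ratios were 2.99 (2.58 to 3.47) in precursors, 2.45 (1.63 to 3.79) in monocytes, 2.43 (1.73 to 3.37) in macrophages and 2.20 (1.25 to 4.11) in CD4 T cells. B cells had 2.0 (1.37 to 2.98), just under 2 before rounding, and neutrophils, from 24.4 to 45.1 CPM, had 1.85 (1.60 to 2.14). In CD8 T cells, where Zbp1 and Ddx60 had ratios above 4, Adar had 27.0 and 34.9 CPM, a ratio of 1.29 (0.781 to 2.20), and no difference was detectable at this depth. T cells without Cd4 or Cd8 UMIs had 9 and 41 UMIs, a ratio of 2.06 (0.988 to 4.83). The CD4 T cell ratio was 1.35 after thinning, when 4 of 124 PBS cells held an Adar UMI. That of T cells without Cd4 or Cd8 UMIs was 5.35, when 1 of 86 PBS cells held a UMI. Levels in precursors and B cells lay below those of empty droplets, 18.8 CPM in PBS and 40.4 CPM in cmExoaCD11b.

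More cells held a UMI of a member in cmExoaCD11b. To set 1 depth, every cell was thinned to 1000 UMIs, and the 368 PBS and 441 cmExoaCD11b cells below that depth were left out. At least 1 UMI of any member was then present in 17.4% of PBS neutrophils (521 of 2987, 16.1% to 18.9%) and in 38.9% of cmExoaCD11b neutrophils (930 of 2391, 36.9% to 40.9%). UMIs of 2 or more different members were present in 4.22% and 12.6% of neutrophils. The same shares went from 4.04% to 22.1% in macrophages and from 0 of 130 PBS monocytes, which allows a share of up to 2.31% by a floor of 3 cells and up to 2.80% by the exact interval, to 14.7% of cmExoaCD11b monocytes. In CD8 T cells they went from 4.13% to 17.6%. CD4 T cells differed less, with 12.9% in PBS and 18.0% in cmExoaCD11b, and their intervals overlapped. The intervals also overlapped in T cells without Cd4 or Cd8 UMIs, with 8.14% and 20.1%. B cells, with 1.15% and 2.06% and overlapping intervals, gave the lowest shares in cmExoaCD11b. For Ifih1 alone, 0.385% of PBS and 1.76% of cmExoaCD11b B cells held a UMI, against 4.05% and 9.91% of neutrophils, with median depths of 3821 and 5297 UMIs in B cells and 3136 and 3058 in neutrophils.

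**Figure D3:**
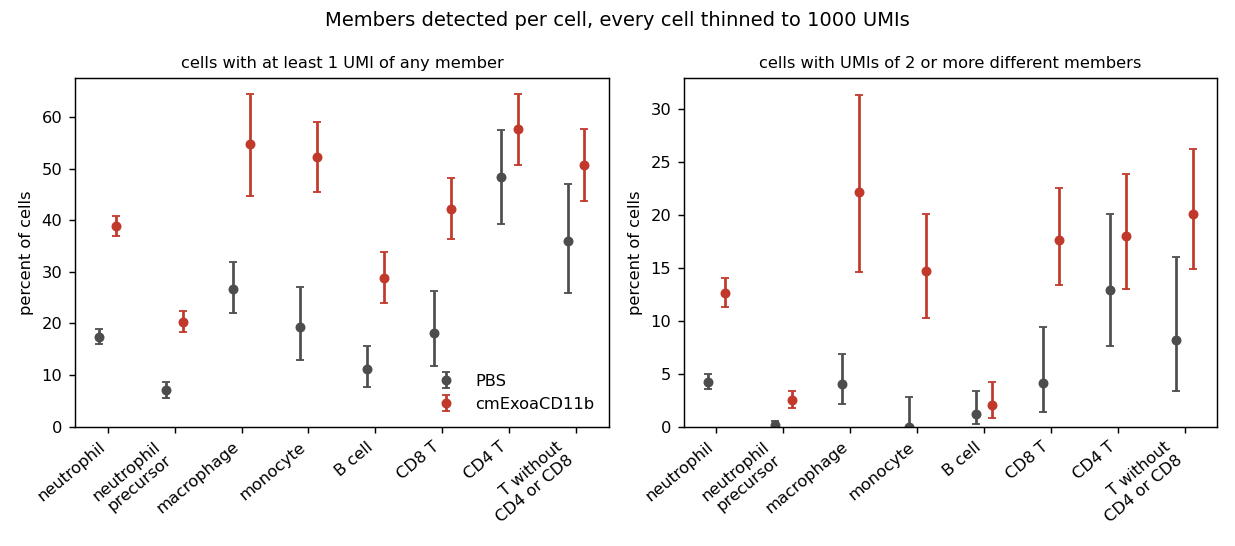
Share of cells, in percent from 0, with at least 1 UMI of any member (left) and with UMIs of 2 or more different members (right) in 8 classes, after every cell was thinned to 1000 UMIs. Bars are exact Clopper-Pearson 95% intervals for counting error, PBS is grey and cmExoaCD11b red. The intervals of CD4 T cells and of T cells without Cd4 or Cd8 UMIs overlap between libraries in both panels. Those of B cells overlap in the right panel only. Those of neutrophils, macrophages and monocytes overlap in neither panel.

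The levels of the members varied with the interferon response of single neutrophils. Thinned cells were grouped by their UMIs of 8 other interferon-stimulated genes, Isg15, Ifit1, Ifit2, Ifit3, Rsad2, Oasl1, Usp18 and Ifi44. In PBS neutrophils the 7 members together stood at 115 CPM in cells with 0 of these UMIs, 259 CPM with 1 to 2, 711 CPM with 3 to 9 and 1858 CPM with 10 or more. In cmExoaCD11b neutrophils they stood at 274, 430, 912 and 1917 CPM over the same groups. The libraries differed in the lower groups and met in the highest. The ratio of cmExoaCD11b to PBS was 2.39 (1.99 to 2.86) in neutrophils with 0 list UMIs, 1.66 (1.35 to 2.05) with 1 to 2, 1.28 (1.08 to 1.53) with 3 to 9 and 1.03 (0.885 to 1.21) with 10 or more. The shares of neutrophils in these groups shifted at the same time. Cells with 0 list UMIs made up 69.3% of PBS and 37.1% of cmExoaCD11b neutrophils, and cells with 10 or more made up 4.25% and 12.6%. Neutrophils with 0 had a median of 3296.5 UMIs in PBS and 3235 in cmExoaCD11b before thinning. Such a cell may have held list UMIs that thinning removed, so this group is not one of cells without an interferon response.

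Within PBS neutrophils each member was higher in the group with 10 or more list UMIs than in the group with 0. Ddx60 had the largest difference, 441 CPM against 14.0 CPM, a ratio of 31.5 (19.8 to 51.1). Adar had the smallest, 150 CPM against 21.7 CPM, a ratio of 6.88 (3.80 to 12). Ddx58 had 12.5 (7.86 to 19.7), Zbp1 12.1 (7.82 to 18.5) and Ifih1 22.5 (14.4 to 35.3). The differences were smaller in cmExoaCD11b neutrophils, where the 7 members together had a ratio of 6.99 against 16.2 in PBS. There Ifih1 had the largest, 12.3 (8.38 to 18.4), and Ddx60 had 6.61 (4.93 to 8.95). In precursors with 0 list UMIs, which made up 94.9% of PBS and 74.0% of cmExoaCD11b precursors, the 7 members went from 64.5 to 200 CPM, a ratio of 3.10 (2.34 to 4.16). Thinning removed most UMIs of these precursors, whose medians had been 16483 in PBS and 16091 in cmExoaCD11b. Cells share a library and are not replicates, so these values describe the cells of 2 libraries.

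In macrophages, monocytes and the 3 T cell classes of the PBS library, Ifih1 had a larger ratio between these groups than the other 6 members together. In PBS macrophages with 3 or more list UMIs (48 cells), Ifih1 stood at 2104 CPM against 81.2 CPM in the 197 cells with 0, a ratio of 25.9 (15.2 to 47.0). The other 6 members together stood at 146 CPM (7 UMIs) against 127 CPM (25 UMIs), a ratio of 1.15 (0.42 to 2.73). In PBS CD4 T cells, Ifih1 had 1660 CPM against 264 CPM, and the other 6 had 362 CPM against 321 CPM, a ratio of 1.13 (0.541 to 2.35). The counts were smaller in monocytes and the other T cells. In PBS monocytes Ifih1 had 15.6 (5.86 to 44.0), and the other 6, with 1 UMI in the higher group, had 0.743 (0.0176 to 4.88). In PBS CD8 T cells Ifih1 had 9 UMIs against 1, a ratio of 37.9 (5.25 to 1661), and the other 6 had 1.40 (0.33 to 4.63). In PBS T cells without Cd4 or Cd8 UMIs, Ifih1 had 36 UMIs against 2, a ratio of 26.7 (6.87 to 229), and the other 6 had 2.67 (0.803 to 10.1), so that the intervals overlapped. In PBS neutrophils the other 6 were higher as well, with 866 CPM with 3 or more list UMIs against 97.1 CPM with 0. Their ratio was 8.92 (7.46 to 10.7). Ifih1 had 13.2 (8.89 to 19.9) there, also the larger ratio, and the intervals overlapped. In cmExoaCD11b the other 6 were higher with 3 or more list UMIs in macrophages, with a ratio of 2.94 (1.21 to 8.60), and in monocytes, with 1.89 (1.16 to 3.13). Their ratio in CD8 T cells was 5.21 (3.30 to 8.55), and in CD4 T cells it was 1.35 (0.823 to 2.28). In T cells without Cd4 or Cd8 UMIs the other 6 had 2.12 (1.32 to 3.48) and Ifih1 had 7.61 (4.28 to 14.7). Ifih1 in the other 4 classes had ratios between 8.87 in CD4 T cells and 14.3 in macrophages and monocytes.

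**Figure D4:**
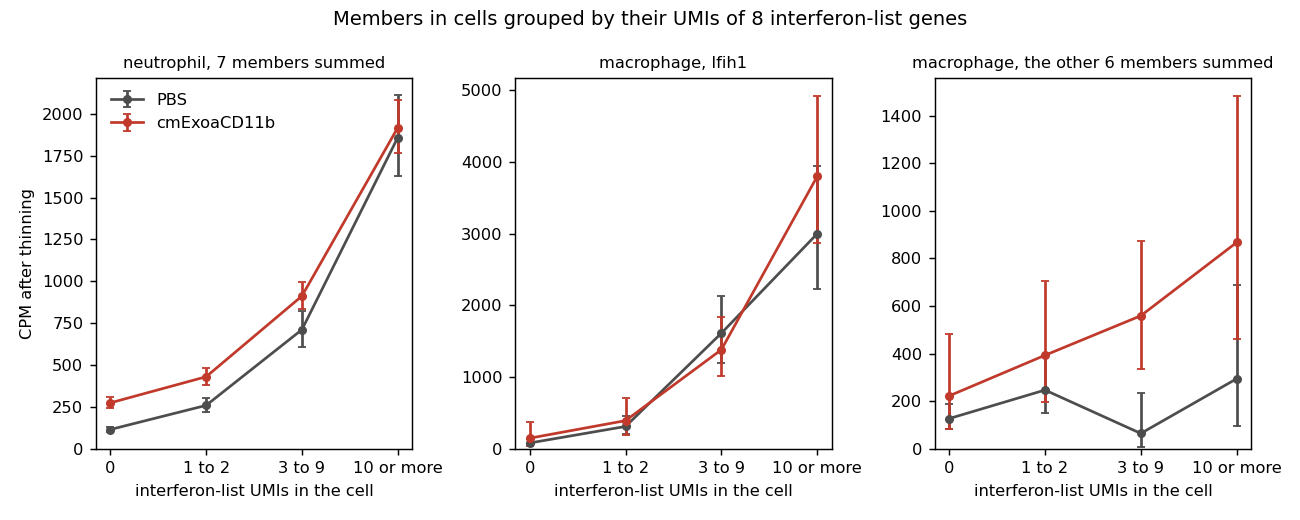
CPM after thinning to 1000 UMIs per cell (vertical axes, from 0) in cells grouped by their UMIs of 8 interferon-list genes (horizontal axes), for 7 members summed in neutrophils (left), Ifih1 in macrophages (middle) and the other 6 members summed in macrophages (right). PBS is grey, cmExoaCD11b red, and bars are exact Poisson 95% intervals for counting error. The neutrophil lines meet in the highest group at 1858 and 1917 CPM, and Ifih1 climbs in macrophages of both libraries.

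Ifih1 UMIs were concentrated in few cells, and over all classes a minority of these cells also held interferon beta transcripts. The top 1% of kept cells held 44.6% of all Ifih1 UMIs in PBS and 29.1% in cmExoaCD11b, with up to 102 and 184 UMIs in a single cell. For Ddx58 the top 1% held 16.8% and 11.7%, with at most 5 and 10 UMIs in a cell. Cells with 10 or more Ifih1 UMIs numbered 40 of 327 macrophages in PBS and 21 of 110 in cmExoaCD11b, where they held 77.2% and 73.5% of the class's Ifih1 UMIs. Ifnb1, which encodes interferon beta, stood at 234 CPM in those 40 PBS macrophages, with UMIs in 14 of them, against 7.63 CPM in PBS macrophages with no Ifih1 UMI. In cmExoaCD11b it stood at 532 CPM in the 21 such macrophages, but also at 232 CPM in the 34 macrophages with no Ifih1 UMI, where 2 cells held all 41 UMIs. In the 24 such monocytes of cmExoaCD11b it stood at 323 CPM, with UMIs in 11 of them, against 8.30 CPM with no Ifih1 UMI. Among CD4 T cells with 10 or more Ifih1 UMIs, 1 of 15 held an Ifnb1 UMI in PBS, at 11.5 CPM over the 15. In cmExoaCD11b the 28 such cells stood at 143 CPM against 9.37 CPM with no Ifih1 UMI, but 1 cell held all 28 Ifnb1 UMIs. Ifit1, an interferon-stimulated gene, was high in these CD4 T cells, at 3142 CPM in PBS against 185 CPM in CD4 T cells with no Ifih1 UMI, and at 4028 against 481 CPM in cmExoaCD11b. Over all kept cells, 33 of 125 PBS and 56 of 274 cmExoaCD11b cells with 10 or more Ifih1 UMIs held an Ifnb1 UMI. With no Ifih1 UMI it was 46 of 5731 PBS and 41 of 4683 cmExoaCD11b cells. The cells with 10 or more were deeper, with medians of 10478 against 3261 UMIs in PBS and 7484.5 against 3494 in cmExoaCD11b. Among dendritic cells with 10 or more Ifih1 UMIs, 3 of 7 in PBS and 13 of 25 in cmExoaCD11b held an Ifnb1 UMI. Among such PBS neutrophils, 1 of 8 cells held all 33 Ifnb1 UMIs. No Ifnb1 UMI was found in such CD8 T cells (1 in PBS and 14 in cmExoaCD11b) or T cells without Cd4 or Cd8 UMIs (6 and 14). The 5 such B cells of cmExoaCD11b held none either.

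After thinning, the level of Ifnb1 over all kept cells with at least 1000 UMIs likewise rose with the Ifih1 UMIs of the cell. In PBS, Ifnb1 stood at 4.44 CPM in 6079 cells with 0 Ifih1 UMIs, 115 CPM in 304 cells with 1 to 2 and 202 CPM in 84 cells with 3 or more. In cmExoaCD11b the values were 6.29 CPM in 5723 cells, 61.1 CPM in 704 and 244 CPM in 205. Ifit1 went from 86.2 to 2512 CPM in PBS and from 296 to 4532 CPM in cmExoaCD11b between the lowest and the highest group. The other 6 members together did not keep climbing. They had 152 CPM (142 to 162), 431 CPM (360 to 511) and 440 CPM (310 to 607) in PBS, and 381 CPM (365 to 397), 760 CPM (697 to 827) and 595 CPM (494 to 711) in cmExoaCD11b. These groups pool all classes, which differed in their share of cells with an Ifih1 UMI. The part of class make-up in these values was not tested. Conversely, the 41 PBS and 73 cmExoaCD11b cells with a UMI of Ifnb1, Ifna2 or Ifna4 had Ifih1 at 1854 and 2521 CPM, against 115 and 278 CPM in cells without. Ddx58 in the same cells had 24.4 and 123 CPM against 38.9 and 85.4 CPM, and Ddx60 had 24.4 and 110 CPM against 32.2 and 106 CPM, and the intervals of each of these pairs overlapped.

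**Figure D5:**
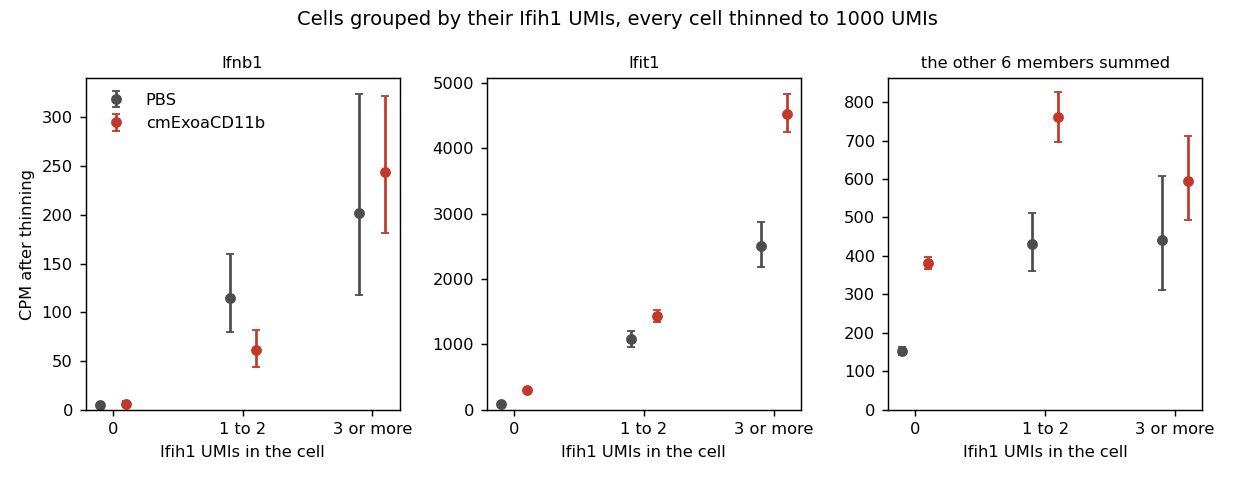
CPM after thinning to 1000 UMIs per cell (vertical axes, from 0) of Ifnb1 (left), Ifit1 (middle) and the other 6 members summed (right). The cells are all kept cells with at least 1000 UMIs, grouped by their Ifih1 UMIs (horizontal axes). PBS is grey, cmExoaCD11b red, and bars are exact Poisson 95% intervals for counting error. Ifnb1 reaches 202 and 244 CPM in cells with 3 or more Ifih1 UMIs, while the other 6 members in cmExoaCD11b are at 760 CPM in the middle group and 595 CPM in the highest.

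Fewer of the other genes of the RNA sensing pathways reached 2-fold. Of 42 genes in 6 lists, 228 pairs of gene and class had enough UMIs, and 27 were at least 2-fold higher and 1 at least 2-fold lower. Of all genes compared in a class, 2.23% to 4.58% were at least 2-fold higher and 0.95% to 12.1% at least 2-fold lower. Irf7, the transcription factor downstream of MAVS, was at least 2-fold higher in 7 of 8 classes, with ratios from 2.72 (2.47 to 3.0) in neutrophils to 4.74 (3.71 to 6.05) in macrophages, and at 1.74 in CD4 T cells. In the whole RIG-I-like receptor list, 12 genes with 71 pairs, 10 pairs reached 2-fold, and 7 of these were Irf7. The others were Trim25 (2.92 in T cells without Cd4 or Cd8 UMIs), Zc3hav1 (2.09 in macrophages) and Nlrx1 (2.52 in neutrophils), in 1 class each. The kinase gene Tbk1 and the transcription factor gene Irf3, which act downstream of MAVS, had ratios between 0.95 and 1.61 and between 0.726 and 1.18 where compared. Mavs itself had too few UMIs to be compared in any class.

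Genes of RNA decay and editing reached 2-fold in 10 of 50 pairs. Helz2 did so in 5 classes, with a ratio of up to 3.15 in monocytes, Samd9l in 3, with up to 4.51 in monocytes, and Znfx1 in macrophages (2.82) and monocytes (3.79). None of the 56 pairs of the PKR and eIF2 alpha list was 2-fold higher. Ddit3, a stress response transcription factor gene, was lower in monocytes at 0.476 (0.334 to 0.677), the sole such pair of the 56. Of all genes compared in monocytes, 2.8% were at least 2-fold lower. Of the ZBP1 partners, Mlkl, the executor of necroptosis, was higher in monocytes at 3.68 (1.87 to 8.05), the sole pair of 24, a share near that of all genes. Among endosomal sensors, Tlr7 in neutrophils (4.44, 3.12 to 6.46) and the adaptor gene Myd88 in monocytes (2.19, 1.76 to 2.75) passed, 2 of 23 pairs. Ifnb1 could be compared in 4 classes and was higher in each, at 2.42 (1.70 to 3.48) in neutrophils, 3.89 (2.15 to 7.62) in precursors, 4.10 (3.34 to 5.04) in macrophages and 2.31 (1.67 to 3.26) in monocytes. Few cells carried these UMIs, which the intervals do not allow for. In PBS neutrophils 1 cell held 33 of the 49. Among cmExoaCD11b cells with 10 or more Ifih1 UMIs, 3 neutrophils held 68 Ifnb1 UMIs, 3 precursors 46, 7 macrophages 128 and 11 monocytes 104.

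The members were alike in their profile over the 8 classes and 2 libraries to different degrees. Against the mean standardized profile of the 7, on log2(CPM + 1) over 16 points, Pearson's r was 0.954 for Eif2ak2, 0.945 for Adar, 0.871 for Ddx58, 0.857 for Ddx60, 0.833 for Zbp1, 0.716 for Ifih1 and 0.698 for Dhx58. Each of these is inflated by the member's own share in the mean. Between single members r ran from 0.31 for Ifih1 with Dhx58 to 0.92 for Eif2ak2 with Adar. Of 9672 other genes with at least 500 UMIs, the 5 closest to the mean profile were Xaf1 (0.973), Parp9 (0.953), Slfn8 (0.944), Trim30a (0.925) and Irgm1 (0.924). The 16 points share 2 libraries and differ in depth, so these values describe them and carry no test.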

How the data were processed

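The authors deposited, for each of 2 libraries, a matrix of raw UMI counts per gene and droplet, and its header names Cell Ranger 7.1.0. The version in the study's methods differs, and the genome build of the files is not given in the sources used here. Whether counting used strand is likewise not given, and Dhx58, Eif2ak2 and Adar share exon sequence with genes on the opposite strand.

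The 7 genes, the gene lists and the alternatives were chosen with earlier results of these data known. Cells were called from the deposited counts as droplets above a cut-off on ranked UMIs (the UMIs at percentile 99 of 3000 expected cells, divided by 10) plus droplets with at least 500 UMIs whose profile differed from that of droplets with at most 100 UMIs (10000 simulations, FDR 0.01). Droplets under 200 genes or over 20% mitochondrial UMIs were dropped. Scrublet's automatic threshold marked 0 cells, so the highest scores were removed at 0.8% per 1000 cells. This left 6835 and 7073 cells with 50650189 and 62244808 UMIs, and 1324 and 1121 of them passed no gate. A class required at least 3 UMIs over at least 2 of its markers, a Poisson tail under 0.001 against free RNA at 10% of UMIs, and 4 times the UMIs of any other lineage. The named genes are the 7 members in every class that held 50 cells or more in each library, list genes past 2-fold in a class, and the 5 genes most like the members' mean profile. Tbk1, Irf3 and Mavs were named after their values were seen.

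Intervals are exact Poisson (CPM), exact conditional (ratios) and Clopper-Pearson (shares), at 95%, and cover counting error only. Alternatives were other cell calls, gates, totals, weights, fold limits and depths. The scripts were tested on simulated data. The genotype of the tumor line is not reported here. Promoters came from a RefSeq table (GRCm38.p6). Software was Python 3.11.15, numpy 2.4.6, scipy 1.17.1, pandas 2.3.3, scanpy 1.11.5 and matplotlib 3.10.9.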

Additional observations from a re-analysis of the deposited data

Results flagged for a closer look

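The members were also higher in cmExoaCD11b in droplets that no class comparison used. In the 1324 PBS and 1121 cmExoaCD11b cells that passed no marker gate, the ratio of cmExoaCD11b to PBS in CPM was 2.92 for Ddx58, 3.81 for Ifih1, 4.19 for Dhx58, 3.34 for Zbp1, 3.27 for Eif2ak2, 2.72 for Ddx60 and 1.95 for Adar. The level of Ifih1 in these cells was 224 CPM in PBS and 855 CPM in cmExoaCD11b, where 1 of them held 184 Ifih1 UMIs, the most of any kept cell. The ungated cells were not alike between libraries. Among those with no Ifih1 UMI, the median mitochondrial share was 0.363% in 1179 PBS cells and 3.81% in 772 cmExoaCD11b cells. The part of this difference in the ratios was not tested. In droplets with at most 100 UMIs, which hold free RNA, the ratio was 2.05 for Ddx58, 2.07 for Ifih1, 3.03 for Dhx58, 2.02 for Zbp1, 3.35 for Eif2ak2, 2.52 for Ddx60 and 2.14 for Adar. The levels there were 22.7 CPM in PBS and 57.3 CPM in cmExoaCD11b for Ddx60, and 12.3 and 41.1 CPM for Eif2ak2. Both sets of droplets were noted because they lie outside the class comparisons and carried more of each member in cmExoaCD11b than in PBS.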

How the results depend on the processing

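No paired analysis was possible because each treatment has 1 library. The ratio of the 7 members together over all kept cells was 2.27. It became 2.206 after division by the median ratio of all genes compared in all kept cells, and 2.539 with equal weight for each cell. It was 2.158 in droplets above the cut-off on ranked UMIs and 2.479 with cells thinned to 1000 UMIs. With each cell capped at 3 UMIs of a gene, an alternative chosen after seeing the data, it was 2.32. The number of members past the fold limit in B cells, 2 at 2-fold, was 5 at 1.5-fold, 1 at 3-fold, 4 with equal weight and 5 after thinning. In CD4 T cells, 2 at 2-fold, it was 4 at 1.5-fold, 0 at 3-fold and 1 after thinning. In T cells without Cd4 or Cd8 UMIs, 4 at 2-fold, it was 1 at 3-fold and 2 after division by the median ratio, with equal weight, or with totals free of mitochondrial and ribosomal genes. At 3-fold it was 3 in macrophages and 2 each in neutrophils and precursors. The share of neutrophils with an Ifih1 UMI rose with depth, to 7.375% in PBS and 16.17% in cmExoaCD11b when cells were thinned to 2000 UMIs. Of 667 ratios recomputed over 13 alternatives, 664 were above 1 and 3 below. Those 3 were Ddx58 in CD4 T cells at 0.9889 after thinning, Ddx60 in B cells at 0.6729 in droplets above the cut-off on ranked UMIs and Dhx58 in B cells at 0.9253 after subtraction of free RNA. The cause of these shifts was not tested. Droplets above the cut-off on ranked UMIs held under 50 cells of each T cell class, which gave no value there. Thinning gave no ratio for Ddx58 in monocytes or for Ddx60 in B cells and in T cells without Cd4 or Cd8 UMIs, and subtraction of free RNA gave none for Ifih1 in B cells. Depth limits Dhx58 most, with 53 to 55 UMIs in CD8 T cells and B cells.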
